A study of Homo sapiens with 12 samples.

Results

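HOX genes are homeobox transcription factor genes that lie in 4 clusters, HOXA, HOXB, HOXC and HOXD. The members described here are all genes of the table whose symbol is HOX, a cluster letter from A to D and a number, which leaves out antisense genes. There were 39 of them among 61806 genes, 11 in HOXA on chromosome 7, 10 in HOXB on chromosome 17, 9 in HOXC on chromosome 12 and 9 in HOXD on chromosome 2. By paralog number they were split into an anterior class (1 to 3, 8 genes), a central class (4 to 8, 15 genes) and a posterior class (9 to 13, 16 genes).

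Bulk RNA-seq was available for H1, an established line of human embryonic stem cells with the genotype WT. All 6 groups came from this 1 line, which limits them as a model. Per the methods, all were turned into mesendoderm with the WNT activator CHIR-99021 on Day 0 and were given insulin on Day 1, in DF medium (DMEM/F12 with supplements). The NP-IWP2 group was never passaged, and its medium held 3 µM IWP2, an inhibitor of WNT production, between Day 2 and Day 4. The P-DF group was lifted off and plated anew on Day 2 and had no IWP2, so that it differs from NP-IWP2 both in passaging and in IWP2. The P-IWP2 group had both the passage on Day 2 and IWP2. The study's text says that the ROCK inhibitor Y27632 was part of the passaging in experiments after its effect had been tested, and whether that holds for each of these libraries is not stated. Each treatment was sampled on Day 12 and Day 16 with 2 libraries per group, 12 in all. The labels number them as replicates 1 and 2 (NP-IWP2), 3 and 4 (P-DF) and 5 and 6 (P-IWP2) on both days. Nothing in the sources says that replicates were separate cultures, so p-values measure only the spread between these libraries, which may be technical. No static group without IWP2 was among these libraries.

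In the embryo, HOX genes are switched on in the order in which they lie in a cluster, and their domains begin at successive levels from the hindbrain to the tail. Genes with low paralog numbers are therefore active in anterior tissue and those with high numbers in posterior tissue. The proteins bind DNA together with cofactors of the TALE family, the PBX, MEIS and PKNOX proteins. In the heart, anterior HOX genes mark progenitors of the posterior second heart field, which contribute to the inflow and outflow tracts, and retinoic acid is a known inducer of these genes.

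Between 14885589 and 19176239 reads were counted on genes per library. Levels are given in FPKM, counts scaled to exon length and library total, so that they can be compared between genes. A gene at 0 counts may have had up to 3 (0.156 to 0.202 CPM, which leaves exon length aside), a limit for counting error only. One library stood apart. The P-IWP2 replicate 5 of Day 12 correlated with its replicate 6 at 0.920 (Pearson, log2(CPM + 1) across genes), whereas the replicates of every other group correlated at 0.990 or above. In this library the cardiomyocyte markers summed to 2155 FPKM, against 4392 FPKM in replicate 6. Results that rest on it are given with and without it.

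Of the 39 HOX genes, 7 had no count in any library, 11 had at most 1 to 3 counts, and 21 had more than 3 counts in at least 1 library. Only 7 reached a group mean of 1 FPKM, and all of these were in HOXB: HOXB2 and HOXB3 (anterior), HOXB4, HOXB5, HOXB6 and HOXB7 (central) and HOXB13 (posterior). The HOXB cluster took 92.8% to 99.9% of all HOX FPKM in each library. HOXB spans chr17:48528526-48728750 (hg38, minus strand), with HOXB1 at its 3′ end and HOXB13 98.4 kb beyond HOXB9. Of the genes proposed as markers of this set, HOXB2 was detected in every library at 4.65 FPKM or more, HOXB1 had 0 to 4 counts per library and HOXA5 had 1 count in the 12 libraries together. Of these 3 markers, HOXB1 and HOXA5 were thus at or near 0, and the set is described by HOXB2 to HOXB8 and HOXB13.

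**Figure D1:**
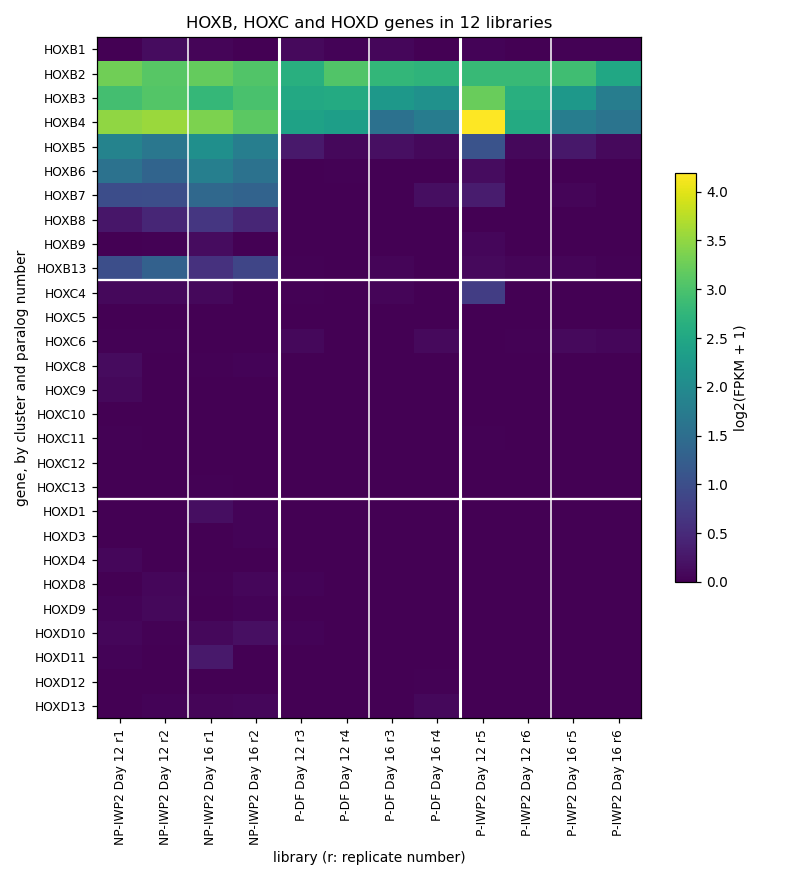
Level of each gene of HOXB, HOXC and HOXD (rows, by cluster and paralog number) in each of the 12 libraries (columns), as log2(FPKM + 1) from dark (0) to yellow. Signal lies almost wholly in HOXB2 to HOXB8 and HOXB13. HOXB2 to HOXB4 are lit in every library, HOXB5 to HOXB8 and HOXB13 mainly in the 4 NP-IWP2 libraries, with HOXB5 also visible in the Day 12 P-IWP2 replicate 5 (1.10 FPKM), and HOXC4 stands out only in the Day 12 P-IWP2 replicate 5.

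MicroRNAs of the clusters are known to act on HOX transcripts. The gene of miR-10a lies between HOXB4 and HOXB5, within the annotated span of HOXB3. The gene of miR-196a-1 lies between HOXB9 and HOXB13, within the annotated span of HOXB7. The gene of miR-196b lies in HOXA, within the annotated span of HOXA9. Their mature sequences (RefSeq, GRCh38.p14) are shown with the seed, bases 2 to 8, in capitals, and miR-196a and miR-196b share 1 seed.
hsa-miR-10a-5p, chr17:48579904-48579926, minus strand: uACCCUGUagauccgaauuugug
hsa-miR-196a-5p, chr17:48632532-48632553, minus strand: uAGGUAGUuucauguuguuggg
hsa-miR-196b-5p, chr7:27169528-27169549, minus strand: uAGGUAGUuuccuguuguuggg
The genes MIR10A, MIR196A1 and MIR196B had 0 counts in all 12 libraries. These libraries were not made for small RNAs as far as the sources say, so nothing is known here of the mature forms.

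HOXB1 was the only HOXB gene with an upstream window in the sequence table used (20 of 39 HOX genes had one), and it is shown because HOXB1 was near 0 while HOXB2, the next gene, was not. The window is the 250 bases before its start, chr17:48531012-48531261 (GRCh38.p14, minus strand, RefSeq), and overlaps no annotated exon. Capitals mark TGATGGAT at 125 to 118 bases before the start. It matches TGATNNAT, a form of the site that PBX and HOX proteins bind as a pair, searched on both strands with no other motif.
HOXB1 upstream window: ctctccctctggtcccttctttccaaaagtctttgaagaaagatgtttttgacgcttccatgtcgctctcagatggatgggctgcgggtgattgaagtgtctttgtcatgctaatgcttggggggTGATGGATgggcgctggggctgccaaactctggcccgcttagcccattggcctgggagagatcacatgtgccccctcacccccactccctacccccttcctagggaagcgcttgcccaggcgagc
These 20 genes had 27 windows in the table. The motif was in 3 of the 27 (1 each of HOXB1, HOXA2 and HOXD11) and in 6.47% of 35116 windows of all genes. A match describes letters in the window and not binding. HOXB2, HOXB3, HOXB4, HOXB5, HOXB6, HOXB7, HOXB8 and HOXB13 were not in the table.

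The level of HOX transcripts as a whole was higher in static culture. The 39 genes summed to 32.9 and 32.7 FPKM in NP-IWP2 on Day 12 and to 32.8 and 29.6 FPKM on Day 16. P-DF libraries summed to 14.8 and 16.5 FPKM on Day 12 and to 11.7 FPKM in both on Day 16. P-IWP2 libraries summed to 35.9 (replicate 5) and 16.4 FPKM on Day 12 and to 13 and 9.30 FPKM on Day 16. Except for replicate 5 of Day 12, every passaged library lay below every static one. In bulk samples, fewer cells of a type and less RNA per cell cannot be told apart.

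The 3 classes are given in turn. Summed over all 8 anterior genes, the level was 14.3 to 15.3 FPKM in NP-IWP2 and 8.98 to 12.2 FPKM in P-DF. Summed over all 15 central genes, it was 14.2 to 17.4 FPKM in NP-IWP2 and 2.12 to 4.70 FPKM in P-DF. The 16 posterior genes summed to 1.09 to 1.69 FPKM in NP-IWP2 and to 0 to 0.09 FPKM in P-DF. In P-IWP2 without the Day 12 replicate 5, the sums were 7.09 to 11.3 FPKM (anterior), 2.19 to 4.98 FPKM (central) and 0.02 to 0.04 FPKM (posterior). In replicate 5 of Day 12 they were 16.0, 19.7 and 0.24 FPKM, so that its anterior and central sums were above all static libraries and its posterior sum below them. The paralog number averaged over HOX genes with FPKM as the weight was 3.92 to 4.06 in NP-IWP2, 2.72 to 3.02 in P-DF, 3.46 in that replicate 5 and 2.77 to 2.96 in the other P-IWP2 libraries. These sums and averages were not tested.

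**Figure D2:**
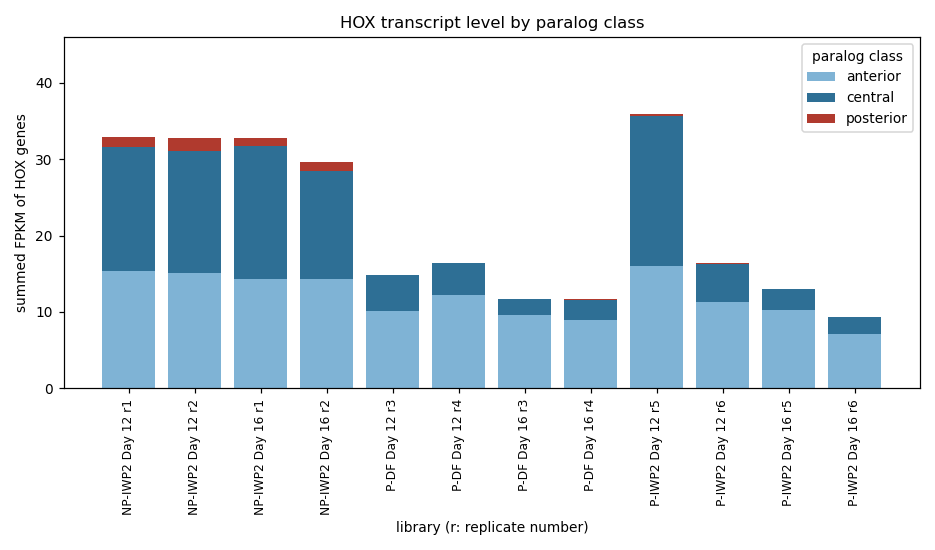
Summed FPKM of the anterior, central and posterior HOX genes (stacked bars from 0) in each of the 12 libraries. In P-DF the central part shrinks to 2.12 to 4.70 FPKM from 14.2 to 17.4 FPKM in NP-IWP2, while 8.98 to 12.2 FPKM of the anterior part are left. The Day 12 P-IWP2 replicate 5 has the tallest bar.

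Among anterior genes, HOXB2, which patterns the hindbrain and second arch, was not called in any comparison with static culture, nor in any of the 17 alternatives to each. In NP-IWP2 it was at 8.69 and 7.59 FPKM on Day 12 and at 8.19 and 7.32 FPKM on Day 16. In P-DF it was at 5.25 and 7.27 FPKM on Day 12 and at 5.82 and 5.63 FPKM on Day 16. In P-IWP2 it was at 6.09 and 6.08 FPKM on Day 12 and at 6.49 and 4.65 FPKM on Day 16. All passaged libraries lay at or below the lowest static one on this scale, but on the scale of the test, which corrects for library composition, the groups overlapped.

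HOXB3, its neighbour in the cluster and in hindbrain patterning, was at 6.62 and 7.40 FPKM in NP-IWP2 on Day 12 and at 5.93 and 6.89 FPKM on Day 16. In P-DF it was at 4.74 and 4.92 FPKM on Day 12 and at 3.68 and 3.35 FPKM on Day 16. In P-IWP2 it was at 8.43 (replicate 5) and 5.26 FPKM on Day 12 and at 3.72 and 2.42 FPKM on Day 16. All P-DF libraries were below all NP-IWP2 libraries, and the P-IWP2 libraries were too except for replicate 5 of Day 12, the highest of the 12. The exons of HOXB3 share 433 bases with those of HOXB6 (5.83% of the exon length of HOXB3 and 16.6% of that of HOXB6) and 374 bases with the antisense gene HOXB-AS1. Whether the counting used strand is not given in the sources used here, so reads there cannot be assigned for certain. Other anterior genes were low: HOXA2 and HOXA3 had 15 and 33 counts in replicate 5 of Day 12 P-IWP2 and at most 2 elsewhere, HOXB1 and HOXD1 had at most 4 counts in a library, and HOXD3 at most 2.

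HOXB4, the first central gene of the cluster and known for its role in blood stem cells, held the highest level of any HOX gene in any library (17.2 FPKM). It was at 10.2 and 10.7 FPKM in NP-IWP2 on Day 12 and at 9.32 and 7.74 FPKM on Day 16. In P-DF it was at 4.30 and 4.10 FPKM on Day 12 and at 1.95 and 2.38 FPKM on Day 16. In P-IWP2 it was at 17.2 (replicate 5) and 4.89 FPKM on Day 12 and at 2.43 and 2.06 FPKM on Day 16. All P-DF libraries and 3 of 4 P-IWP2 libraries were below all static libraries, and replicate 5 of Day 12 was above them.

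HOXB5, which has roles in gut innervation and vessel progenitors, was at 2.68 and 2.17 FPKM in NP-IWP2 on Day 12 and at 3.24 and 2.48 FPKM on Day 16. In P-DF it was at 0.22 and 0.07 FPKM on Day 12 and at 0.13 and 0.06 FPKM on Day 16. In P-IWP2 it was at 1.10 (replicate 5) and 0.07 FPKM on Day 12 and at 0.21 and 0.08 FPKM on Day 16. Replicate 5 held 32 HOXB5 counts, against 26 in the other 7 passaged libraries together, and it was still below every static library.

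HOXB6, a gene of the trunk mesoderm, was at 2.00 and 1.55 FPKM in NP-IWP2 on Day 12 and at 2.50 and 1.98 FPKM on Day 16. In the passaged groups it was at 0 in 6 of 8 libraries, and at 0.02 and 0.10 FPKM in P-DF replicate 4 and P-IWP2 replicate 5 of Day 12. The static and passaged libraries were far apart on both days. HOXB7, its neighbour, was at 0.99 and 1.00 FPKM in NP-IWP2 on Day 12 and at 1.66 and 1.51 FPKM on Day 16. Passaged libraries had 0 FPKM of HOXB7 in 5 of 8 libraries, 0.25 FPKM in P-IWP2 replicate 5 of Day 12, 0.11 FPKM in P-DF replicate 4 of Day 16 and 0.04 FPKM in P-IWP2 replicate 5 of Day 16. HOXB8, the last central gene of the cluster, was at 0.19 and 0.36 FPKM in NP-IWP2 on Day 12 and at 0.59 and 0.36 FPKM on Day 16. It had 0 counts in all 8 passaged libraries, replicate 5 of Day 12 included. The other 10 central genes, in HOXA, HOXC and HOXD, had at most 30 counts in a library, the most being HOXC4 in replicate 5 of Day 12.

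The posterior class was nearly silent apart from HOXB13, a gene of the tail bud and the prostate that lies apart from the rest of the cluster. HOXB13 was at 1.00 and 1.45 FPKM in NP-IWP2 on Day 12 and at 0.52 and 0.84 FPKM on Day 16. In P-DF it was at 0.02 and 0 FPKM on Day 12 and at 0.04 and 0 FPKM on Day 16, and in P-IWP2 at 0.08 and 0.04 FPKM and at 0.04 and 0.02 FPKM. The static libraries were all above the passaged ones. HOXB9, its nearest neighbour, had 0 to 5 counts per library, so the level did not run on from HOXB8 into HOXB9. HOXA13, the posterior end of HOXA, had 5, 8, 13 and 9 counts in the 4 static libraries, 7 counts in replicate 5 of Day 12 P-IWP2 and 0 counts in the other 7 passaged libraries. HOXD11 had 9 counts in 1 static library and HOXD10 at most 5 in a library, both highest in NP-IWP2 on Day 16, and the other 11 posterior genes had at most 3 counts in any library.

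**Figure D3:**
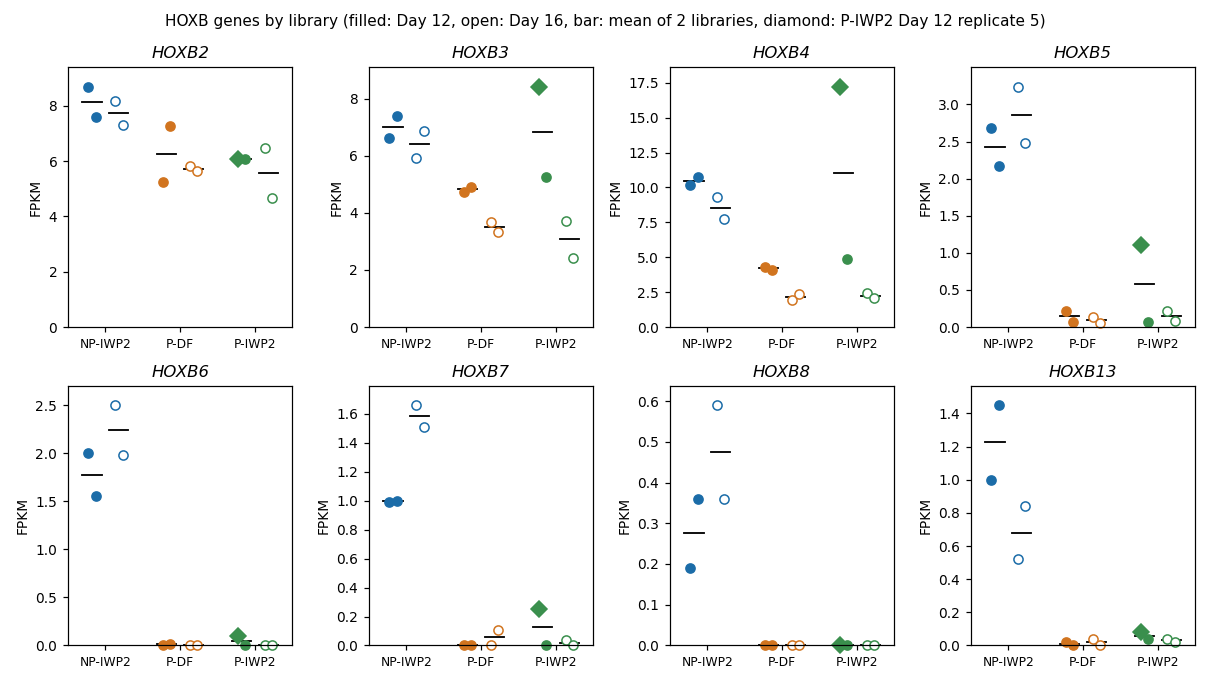
FPKM of 8 HOXB genes in each library (1 panel per gene, linear axis from 0), by treatment, with Day 12 filled, Day 16 open, a bar at the mean of 2 libraries and a diamond for the Day 12 P-IWP2 replicate 5. The treatments lie close for HOXB2, part for HOXB3 and HOXB4, and are far apart from HOXB5 on. The diamond is the highest point for HOXB3 and HOXB4 and lies below the static libraries for HOXB5 to HOXB8 and HOXB13.

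Tests were run on the counts of all 19505 genes that passed a filter on low counts, and the Benjamini-Hochberg adjusted p of edgeR's quasi-likelihood test was read at 0.05. Of the 39 HOX genes, 8 passed the filter, HOXB2 to HOXB8 and HOXB13. For HOXB5 to HOXB8 and HOXB13 the filter was passed through the NP-IWP2 libraries alone, so these 5 had to be higher there, and counts over the 8 genes, like the medians over the central genes, 4 of which are among these 5, are a description and no support. Where a group had 0 counts in both libraries, the fold is given as a bound against 3 counts per library. Where it had 1 to 3 counts, the ratio of CPM is given with its 95% exact counting interval.

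The comparison of P-DF with NP-IWP2 asks what passaging in place of IWP2 did to the cells. On Day 12 the 4 genes HOXB5, HOXB6, HOXB7 and HOXB13 were called, all lower in P-DF, against 3.32% of all genes tested called lower and 0.697% called higher. HOXB5 fell by 3.98 on the log2 scale (SE 0.94, adjusted p = 0.0492). The CPM of HOXB6 was 143-fold lower in P-DF (25.3 to 5690, adjusted p = 0.0154) and HOXB13 114-fold lower (20.0 to 4520, adjusted p = 0.0063). HOXB7 was at least 7.80-fold lower (adjusted p = 0.0464). HOXB8 was at 0 counts in P-DF, a bound of 3.35-fold, and was not called (adjusted p = 0.077). HOXB2, HOXB3 and HOXB4 were not called on Day 12, with log2 fold changes of -0.29 (SE 0.20), -0.45 (SE 0.19) and -1.23 (SE 0.41).

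On Day 12 the count depended on single libraries. Without the Day 12 P-IWP2 replicate 5, which is in neither group compared, 7 genes were called lower in P-DF, with HOXB3 (adjusted p = 0.0352), HOXB4 (adjusted p = 2.4e-04) and HOXB8 (adjusted p = 0.0118) added, against 14.1% of all genes called lower and 8.87% higher in that fit. Without replicate 6 the count was also 7. It was 1 without either NP-IWP2 library of Day 12, 1 and 0 without P-DF replicates 3 and 4, and 2 without any 1 of the Day 16 libraries.

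On Day 16, 7 of the 8 genes were called lower in P-DF, all but HOXB2, where 9.86% of all genes were called lower and 5.39% higher. HOXB2 changed by -0.21 on the log2 scale (SE 0.20). HOXB3 fell by 0.63 (SE 0.19, adjusted p = 0.0498) and HOXB4 by 1.75 (SE 0.42, adjusted p = 0.0249). HOXB5 fell by 4.64 (SE 0.97, adjusted p = 0.0143). From there on the P-DF group was at or near 0: HOXB6 was at least 33.1-fold lower (adjusted p = 0.0035), HOXB7 27.5-fold lower (9.10 to 136, adjusted p = 0.0269), HOXB8 at least 6.48-fold lower (adjusted p = 0.0234) and HOXB13 34.5-fold lower (9.19 to 290, adjusted p = 0.0061). HOXA13, which did not pass the filter, was at 0 counts in P-DF, a bound of 3.52-fold. The median log2 fold change was -0.42 over the 2 anterior genes tested, -4.64 over the 5 central genes as fitted and -4.46 with HOXB6 and HOXB8 at their bound, which is a limit, and -0.02 over all genes tested. Without NP-IWP2 replicate 1 or 2 of Day 12 the count was 4, without either NP-IWP2 library of Day 16 it was 2, and without P-DF replicates 3 and 4 of Day 16 it was 2 and 1. HOXB6 was called in all 17 alternatives and HOXB3 in 8 of 17.

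P-IWP2 and NP-IWP2 both received IWP2 and differ in passaging. On Day 12, 2 genes were called, HOXB6 and HOXB13, both lower in P-IWP2, against 1.33% of all genes called lower and 0.328% higher. HOXB6 fell by 5.16 on the log2 scale (SE 0.79, adjusted p = 0.0256) and HOXB13 by 4.28 (SE 0.67, adjusted p = 0.0171). HOXB5 (-2.15, SE 0.79), HOXB7 (-3.01, SE 0.97) and HOXB4 (0.00, adjusted p = 1.0) were not called, and HOXB8, at 0 counts in P-IWP2 (a bound of 3.49-fold), was not called (adjusted p = 0.128). The 2 libraries of this group disagree on HOXB4. Without replicate 5 its log2 fold change fell to -1.01 (SE 0.22, adjusted p = 0.00683), and without replicate 6 it was 0.59 and was not called. Without replicate 5, 6 genes were called, HOXB4, HOXB5 (-5.04), HOXB6, HOXB7, HOXB8 (adjusted p = 0.0499) and HOXB13 (-4.76), with 1 library left in the group, assumed to vary like those of the other groups. In that fit 10.2% of all genes were called lower and 5.89% higher. Without replicate 6, 3 genes were called. The count was 0 without NP-IWP2 replicate 1 or 2 of Day 12 and 1 without either NP-IWP2 library of Day 16.

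On Day 16, where the P-IWP2 libraries correlated at 0.990, the same 7 genes as in P-DF were called lower, against 9.95% of all genes called lower and 7.15% higher. The comparisons share the NP-IWP2 libraries, so the overlap is not independent evidence. HOXB2 changed by -0.21 on the log2 scale (SE 0.20). HOXB3 fell by 0.79 (SE 0.19, adjusted p = 0.0213), HOXB4 by 1.66 (SE 0.42, adjusted p = 0.0274) and HOXB5 by 4.01 (SE 0.91, adjusted p = 0.0183). HOXB6 was at least 36.2-fold lower (adjusted p = 0.0033), HOXB7 90.1-fold lower (15.7 to 3600, adjusted p = 0.0159), HOXB8 at least 7.09-fold lower (adjusted p = 0.0212) and HOXB13 25.1-fold lower (8.24 to 125, adjusted p = 0.0068). The count was 2 without either NP-IWP2 library of Day 16, and 3 and 1 without P-IWP2 replicates 5 and 6 of Day 16. HOXB6 was called in all 17 alternatives. The median log2 fold change was -0.50 over the 2 anterior genes, -5.92 over the 5 central genes as fitted and -4.01 with genes at 0 counts at their bound, and -0.03 over all genes tested. On Day 12 the anterior median was -0.26 in P-IWP2 and -0.37 in P-DF. The central median on Day 12 was -3.01 as fitted and -2.15 with bounds in P-IWP2, and -6.33 as fitted and -2.96 with bounds in P-DF, against 0.01 and 0.00 over all genes.

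**Figure D4:**
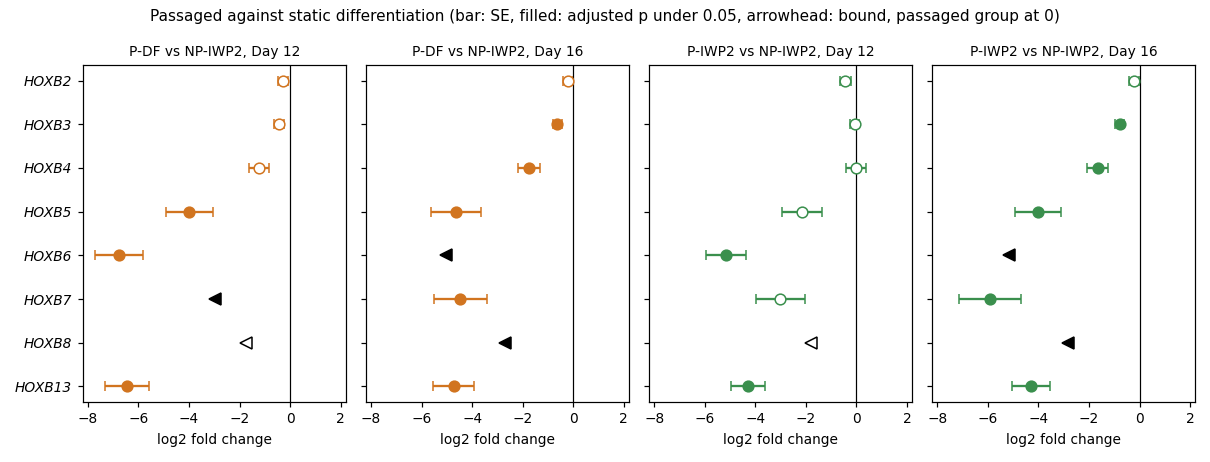
Log2 fold change (x axis) of 8 HOXB genes from the 3′ to the 5′ end of the cluster (y axis) in the 4 comparisons of passaged with static cells, with bars for the SE and filled symbols for an adjusted p under 0.05. Arrowheads are bounds for genes with 0 counts in the passaged group. They allow for counting error in that group only and do not fix where the true change lies. They used library totals, whereas the other symbols are fitted values corrected for library composition. HOXB2 stays near 0 in all 4 panels, and HOXB5 to HOXB8 and HOXB13 lie to the left of HOXB2 and HOXB3.

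Over both days and on the normalized scale of the test, all 4 P-DF libraries were below all 4 NP-IWP2 libraries for 7 of the 8 genes, HOXB3 to HOXB8 and HOXB13, which held for 14.7% of all genes. For P-IWP2 this held for 5 of 8, HOXB5 to HOXB8 and HOXB13, against 5.79% of all genes, and without replicate 5 of Day 12 for 7 of 8, against 16.2%. For all 8 passaged libraries it held for the same 5 genes, against 4.73% of all genes. HOXB2 overlapped in each case. HOXB5 to HOXB8 and HOXB13 passed the filter through the NP-IWP2 libraries alone, so their place below these was largely set by the filter. These counts are therefore a description and no support.

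P-IWP2 and P-DF differ in IWP2 alone, as far as the labels say. Between them on Day 16, 0 of 8 HOX genes and 0% of all genes were called by edgeR, and no HOX gene had an unadjusted p under 0.05 (1567 genes of all did). DESeq2 called 114 genes in all and limma 1, and no HOX gene was among them. The log2 difference of P-IWP2 from P-DF was 0.09 for HOXB4 (SE 0.43), -0.16 for HOXB3 (SE 0.19) and 0.63 for HOXB5 (SE 1.21). The SE of HOXB5 leaves room for a change of several fold. On Day 12, where this contrast was not tested, HOXB4 was at 4.89 FPKM in P-IWP2 replicate 6 and at 4.30 and 4.10 FPKM in P-DF, beside 17.2 FPKM in replicate 5.

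The levels of Day 16 were compared with those of Day 12 within each treatment. In NP-IWP2, edgeR called 0 of 8 HOX genes against 1.98% of all genes, with 0 at an unadjusted p under 0.05, and DESeq2 and limma also called 0. The log2 changes ranged from -0.74 for HOXB13 (SE 0.52) to 0.94 for HOXB8 (SE 0.63). In P-DF, edgeR called 0 of 8 against 13.6% of all genes, with 0 at an unadjusted p under 0.05, and DESeq2 and limma called 0. HOXB4 in P-DF went from 4.30 and 4.10 FPKM to 1.95 and 2.38 FPKM, and it was called without either P-IWP2 library of Day 12 (count of 1).

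In P-IWP2, 2 genes fell from Day 12 to Day 16, against 14.1% of all genes called lower. HOXB3 fell by 0.74 on the log2 scale (SE 0.19, adjusted p = 0.0214) and HOXB4 by 1.83 (SE 0.42, adjusted p = 0.0148). HOXB4 was at 17.2 and 4.89 FPKM on Day 12 and at 2.43 and 2.06 FPKM on Day 16. Without replicate 5 of Day 12 HOXB4 fell by 0.83 (SE 0.22, adjusted p = 0.017) and HOXB3, at -0.49, was not called (adjusted p = 0.0544). Without replicate 6 of Day 12 the count was 4, and without P-IWP2 replicates 5 and 6 of Day 16 it was 1 and 0. Whether the difference from static culture changed with the day was tested as an interaction. By edgeR the interaction was called for 0 of 8 in P-DF (0.482% of all genes; 0 at an unadjusted p under 0.05) and for 0 of 8 in P-IWP2 (1.84% of all genes; 2 at an unadjusted p under 0.05). DESeq2 and limma called 0 in both. Without replicate 6 of Day 12, 4 HOX genes were called for the P-IWP2 interaction.

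The Day 12 P-IWP2 replicate 5 had a HOX profile of its own. HOXA2 had 15 counts there and 0 in the other 11 libraries. HOXA3 had 33, HOXA4 10 and HOXC4 30 counts there, and none of these genes had more than 3 counts in any other library. In FPKM these were 0.41, 0.49, 0.37 and 0.69. HOXB3 and HOXB4 were above all static libraries there, while HOXB6 (0.10 FPKM), HOXB8 (0 counts) and HOXB13 (0.08 FPKM) were below them. Beside this, NR2F1 and SHOX2 of the posterior second heart field list were at 55.6 and 40.6 FPKM in that library and at no more than 0.97 and 4.06 FPKM in the other 11, and IRX4, a ventricular gene, was at 0.04 FPKM, against 20.2 to 68.4 FPKM. CYP26B1, which degrades retinoic acid, was at 5.67 FPKM against 0.09 to 0.60 FPKM. With 1 such library, this profile has no replicate.

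Markers of other cells moved with the treatments. The 8 markers of fibroblasts and stroma summed to 703 to 1247 FPKM in NP-IWP2, to 23.7 to 30.6 FPKM in P-DF, to 706 FPKM in replicate 5 of Day 12 P-IWP2 and to 33.5 to 35.7 FPKM in the other P-IWP2 libraries. In P-DF, 6 of 8 were called lower on Day 12 and 7 of 8 on Day 16, and in P-IWP2 2 of 8 and 8 of 8. Without replicate 5 of Day 12 these counts were 8 and 7 in P-DF and 7 and 8 in P-IWP2. In the Day 16 comparisons of that fit, 18.8% of all genes were called lower and 15.3% higher in P-DF and 19.3% and 17.1% in P-IWP2, beside the Day 12 shares given above. Most of the sum in replicate 5 was COL3A1 (457 FPKM) and COL1A1 (176 FPKM), whereas LUM (0.55 FPKM) and DCN (0.26 FPKM) were near 0, as in passaged cells. The 10 hepatic markers summed to 431 to 885 FPKM in NP-IWP2 and to 5.96 to 20.1 FPKM in the passaged libraries, replicate 5 of Day 12 included (8.33 FPKM). All 10 were called lower in P-DF on both days, and in P-IWP2 9 of 10 on Day 12 and 10 of 10 on Day 16. Their part in the HOX result was not tested.

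The 8 epicardial and mesothelial markers summed to 110 to 131 FPKM in NP-IWP2, 145 FPKM in replicate 5 and 23.6 to 41.2 FPKM in the other passaged libraries. Of 7 tested, 3 were called lower in P-DF on Day 12 and 6 on Day 16, and in P-IWP2 1 and 6 (5 and 7, and 5 and 6, without replicate 5). TBX18 was at 22.2 to 44.8 FPKM in NP-IWP2, 106 FPKM in replicate 5 and at most 0.08 FPKM in the other passaged libraries. The 8 cardiomyocyte markers were all detected, at 2745 to 5075 FPKM in NP-IWP2 and 4392 to 8699 FPKM in passaged libraries other than replicate 5. None of them was called on Day 12, and on Day 16 3 were higher and 1 lower in P-DF and 2 higher and 1 lower in P-IWP2. Without replicate 5, more were called higher in each treatment on both days, and the calls of Day 16 still went in both directions. The 8 endothelial markers summed to 53.8 to 207 FPKM in NP-IWP2, 25.7 FPKM in replicate 5 and 12.3 to 236 FPKM in the other passaged libraries, with 4 and 2 called lower in P-DF on Day 12 and Day 16 and 0 and 1 in P-IWP2 by edgeR (7 and 8, and 7 and 5, without replicate 5). Of the limb and posterior lateral plate markers, 6 were tested, and 4 were called lower in P-DF on Day 12, 3 on Day 16 (with PRRX1 higher), and in P-IWP2 2 and 4. Without replicate 5 of Day 12 these counts were 5 and 3 lower in P-DF and 4 and 5 lower in P-IWP2, with 1 higher in each on Day 16. FOXF1, a lateral plate gene, was at 1.63 to 2.75 FPKM in NP-IWP2, 0.42 FPKM in replicate 5 and 0 to 0.04 FPKM in the other passaged libraries. Of the 7 neural and neural crest markers, TFAP2B and FOXD3 were at 0 or near 0 throughout (at most 0.02 FPKM). PAX6 was the only 1 of the 7 tested. By edgeR it was called lower on Day 16 in P-DF (-1.83, SE 0.36, adjusted p = 0.0112) and in P-IWP2 (-1.48, SE 0.35, adjusted p = 0.0216). On Day 12 it was not called in either. TBXT and MSGN1 were at 0 in every library. MSGN1 is 1 of 6 paraxial mesoderm markers, of which 4 were tested. By edgeR 1 of these, FOXC2, was called lower in P-DF on Day 16 (-2.37, SE 0.51, adjusted p = 0.0153). None was called in P-DF on Day 12 or in P-IWP2 on either day. The part of these markers in the HOX result was not tested.

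**Figure D5:**
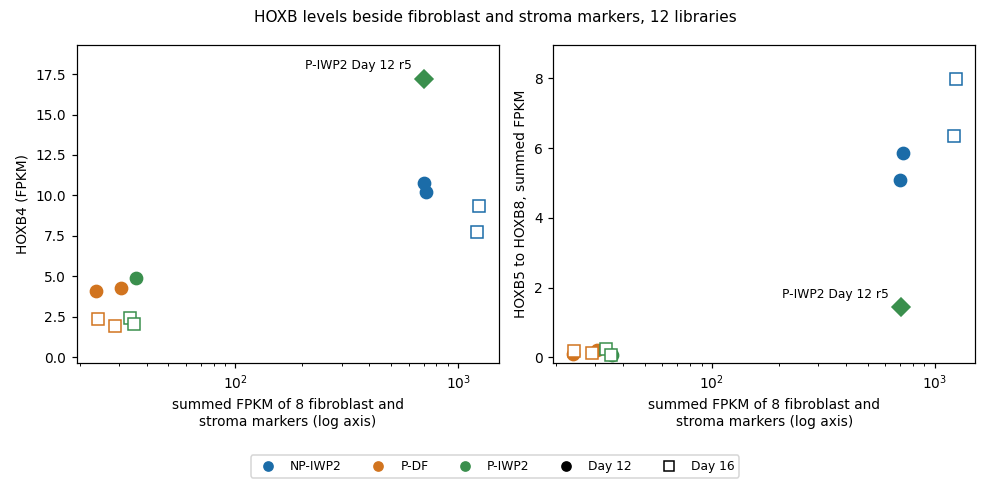
HOXB4 (left) and the sum of HOXB5 to HOXB8 (right) in FPKM against the summed FPKM of 8 fibroblast and stroma markers (log axis) in the 12 libraries, colored by treatment. The Day 12 P-IWP2 replicate 5 (diamond) has a marker sum of 706 FPKM, like that of static Day 12 libraries (703 and 722 FPKM), the highest HOXB4 (17.2 FPKM), and a HOXB5 to HOXB8 sum of 1.45 FPKM against 5.08 FPKM or more in static libraries.

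In replicate 5, HOXB4 and the genes after it stood on different sides of the static libraries. Its summed level of HOXB5 to HOXB8 was 1.45 FPKM, between those of the static libraries (5.08 to 7.99 FPKM) and the other passaged libraries (0.07 to 0.25 FPKM). Its stroma marker sum lay between those of the static Day 12 libraries (703 and 722 FPKM), but most of it was COL3A1 and COL1A1. LUM and DCN were near 0 there, as in passaged cells. Of the 8 markers, these 2 were the only ones called lower in P-IWP2 on Day 12, the group that holds replicate 5. The other 6 were not called, among them TCF21 (log2 fold change 1.63, SE 1.41) and PDGFRA (0.00, SE 0.53). Replicate 5 is 1 library, and its pattern was not tested.

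TALE cofactors, the partners of HOX proteins on DNA, were detected in every library at 1.00 FPKM or more, apart from PBX4. All 11 genes of the list were tested. Their summed level was 139 to 157 FPKM in NP-IWP2, 109 to 141 FPKM in P-DF, 203 FPKM in replicate 5 of Day 12 P-IWP2 and 109 to 141 FPKM in the other P-IWP2 libraries. In P-DF, 1 was called lower on Day 12 (PKNOX2, -1.61, SE 0.36, adjusted p = 0.0422) and 4 on Day 16 (MEIS3, PBX4, PKNOX2 and TGIF1), with 0 higher. In P-IWP2, MEIS2 was called higher on Day 12 and PBX4 and PKNOX2 lower on Day 16. PKNOX2 was at 5.49 to 6.83 FPKM in NP-IWP2 and at 1.00 to 1.97 FPKM in P-DF, and MEIS3 was at 8.49 to 9.64 FPKM in NP-IWP2 and at 2.40 to 4.34 FPKM in P-DF. PBX2, the most abundant, was at 55.4 to 62.6 FPKM in NP-IWP2 and 42.8 to 52.3 FPKM in P-DF and was not called. Of all genes tested, 3.32% were called lower in P-DF on Day 12 and 9.86% on Day 16, and in P-IWP2 1.33% and 9.95%. Called higher were 0.697% and 5.39% in P-DF and 0.328% and 7.15% in P-IWP2. These shares, and those given above for the fit without replicate 5 of Day 12, also apply to the other lists and markers. The median log2 fold change of the 11 TALE genes was -0.14 on both days in P-DF and 0.02 and -0.06 in P-IWP2. The calls without replicate 5 of Day 12 were 2 higher and 3 lower (P-DF, Day 12), 0 and 4 (P-DF, Day 16), 2 and 2 (P-IWP2, Day 12) and 1 and 4 (P-IWP2, Day 16).

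Of 20 regulators known to act upstream of HOX genes, 14 were tested. Their calls stand beside the shares of all genes given with the TALE cofactors. In P-DF, OTX2, an anterior homeobox gene, was called lower on Day 12, and on Day 16 3 were called lower, OTX2 and ALDH1A2 among them, and RARB, a retinoic acid receptor and target, higher. In P-IWP2, OTX2 was called lower on Day 12, and on Day 16 5 were called lower (ALDH1A2, OTX2 and RARG among them) and 2 higher (RARB and GDF11). OTX2 was at 1.29 and 1.48 FPKM in NP-IWP2 on Day 12, 0.26 and 0.27 FPKM on Day 16 and at most 0.15 FPKM in passaged libraries. ALDH1A2, the enzyme that makes retinoic acid, was at 0.46 and 0.80 FPKM in NP-IWP2 on Day 16 and at 0.01 to 0.03 FPKM in passaged cells of that day, but on Day 12 it was at 0.02 and 0.04 FPKM in NP-IWP2, 0.08 and 0.05 FPKM in P-DF and 0.21 and 0.10 FPKM in P-IWP2, and was not called. RARB was at 0.49 and 0.53 FPKM in NP-IWP2 on Day 16 and at 0.82 to 1.05 FPKM in passaged cells. CDX1 and CDX2, which activate central HOX genes in the posterior embryo, were at 0.03 to 0.46 FPKM and 0.10 to 0.41 FPKM in NP-IWP2, at 0.04 and 0.02 FPKM in replicate 5 of Day 12 and at 0 in the other passaged libraries. CDX1 did not pass the filter. By edgeR CDX2 was not called in P-DF (adjusted p = 0.0833 on Day 12 and 0.0574 on Day 16) or in P-IWP2 (0.197 and 0.0513). CDX4 had no count in any library. The median of the 14 was -0.56 and -1.02 in P-DF and 0.00 and -1.23 in P-IWP2 (log2 fold change, Day 12 and Day 16). Without replicate 5 of Day 12, 3 were called higher and 5 lower in P-DF on Day 12, 2 and 8 on Day 16, and in P-IWP2 2 and 3 on Day 12 and 2 and 8 on Day 16.

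Of the 22 chromatin regulators of the HOX clusters, all were tested. The calls were ASH2L lower in P-DF on Day 12 (-0.70, SE 0.14, adjusted p = 0.0281), CBX2 lower in P-DF on Day 16 (-0.74, SE 0.19, adjusted p = 0.0315), and CBX2 lower in P-IWP2 on Day 16 (-1.02, SE 0.19, adjusted p = 0.0088). CBX2 is a Polycomb subunit and ASH2L a subunit of the complexes that methylate histone H3 at lysine 4. KMT2A, EZH2, SUZ12 and EED were not called in these comparisons. None was called by edgeR in P-IWP2 on Day 12. Of all genes tested, 3.32% and 9.86% were called lower in P-DF and 1.33% and 9.95% in P-IWP2 (Day 12 and Day 16). The calls, here and without replicate 5 of Day 12, are given for single genes and are no result about the list. The median log2 fold change of the 22 was -0.19 and -0.17 in P-DF and -0.12 and -0.11 in P-IWP2 (Day 12 and Day 16). In the fit that left out replicate 5 of Day 12, 1 was called higher and 5 lower in P-DF on Day 12, 2 and 5 on Day 16, and in P-IWP2 0 and 3 on Day 12 and 1 and 7 on Day 16.

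Of the 14 genes of the posterior second heart field list, in which anterior HOX genes are active, FGF10 and OSR1 were called higher and FOXF1 lower in P-DF on Day 12, and ALDH1A2, FOXF1 and TBX18 lower on Day 16. In P-IWP2, FGF10 and OSR1 were called higher on Day 12, and on Day 16 FGF10 higher and ALDH1A2, FOXF1, TBX18 and TBX5 lower. OSR1 was at 0.15 and 0.18 FPKM in NP-IWP2 on Day 12 and at 0.59 to 1.24 FPKM in the passaged Day 12 libraries. FGF10 was at 8.44 and 10.6 FPKM in NP-IWP2 on Day 12 and at 14.9 to 24.7 FPKM in the passaged Day 12 libraries. Calls of this list and of the homeobox genes below stand beside the shares of all genes given with the TALE cofactors. The median log2 fold change of the 14 was -0.61 and -0.75 in P-DF and 0.85 and -1.42 in P-IWP2 (Day 12 and Day 16). Like the other list medians of P-IWP2 on Day 12, the 0.85 includes replicate 5, and no median without it is given. In that library NR2F1, SHOX2 and TBX18 were far above the other passaged libraries. Without replicate 5 of Day 12, 4 were called higher and 6 lower in P-DF on Day 12, 0 and 7 on Day 16, and in P-IWP2 3 and 5 on Day 12 and 1 and 9 on Day 16. Of 22 other homeobox genes with known domains along the body axis, 13 were tested and OTX2, called lower, was the only one called in each of the 4 comparisons. When replicate 5 of Day 12 was left out, 5 were called higher and 6 lower in P-DF on Day 12, 2 and 5 on Day 16, and in P-IWP2 5 and 2 on Day 12 and 0 and 6 on Day 16.

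Of 23 noncoding genes of the HOX clusters, 3 passed the filter, all antisense genes of HOXB. HOXB-AS1 had 74, 86, 79 and 60 counts in NP-IWP2 and 71 to 165 counts in passaged libraries, and it was not called in the comparisons with static culture. HOXB-AS2 had 12 to 27 counts in NP-IWP2, 36 counts in replicate 5 of Day 12 and 2 to 9 counts in the other passaged libraries, and it was not called. HOXB-AS3, whose exons overlap those of HOXB5 and HOXB6, had 1 and 4 counts in NP-IWP2 on Day 12, 13 and 14 counts on Day 16 and 0 counts in all passaged libraries. By edgeR it was called lower on Day 16 in P-DF (adjusted p = 0.039) and in P-IWP2 (adjusted p = 0.0347). It passed the filter through the NP-IWP2 libraries of Day 16 alone, so it had to be higher there. These calls are a description and no support. HOTAIR, HOTTIP and the miRNA genes had no count in any library.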

How the data were processed

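Bulk RNA-seq of 12 libraries was analysed from the authors' table. Per the methods and processing notes, the authors trimmed reads with cutadapt 1.9.1, aligned them to hg38 with HISAT2 2.0.1 and counted them per gene with HTSeq 0.6.1. The strand setting and the annotation release are not given in the sources used here. The table holds raw read counts per gene and FPKM as deposited by the authors. The FPKM were recomputed here from the counts and exon lengths and differed by at most 0.005. Positions and exon lengths of the 39 HOX genes equal those of GENCODE release 44.

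Counts were tested with edgeR 4.0.16 in R 4.3.3 (TMM, filterByExpr, 1 model of 6 groups, quasi-likelihood F test, Benjamini-Hochberg over 19505 genes, threshold 0.05). The SE is the size of the log2 fold change divided by the square root of F. Alternatives were library totals, no filter, only the groups compared, DESeq2 1.42.0, limma 3.58.1 on log2(FPKM + 1), each library left out in turn, and a block for the replicate number. The members and lists were chosen with earlier results of these data known. Values per library are given for HOX genes with a group mean of at least 1 FPKM or a call, and other HOX genes by counts and ranges. Those named beyond this rule (HOXA2 to HOXA5, HOXA13, HOXB1, HOXB9, HOXC4, HOXD1, HOXD3, HOXD10 and HOXD11), and the genes of other lists named without a call, were chosen after their values were seen. Some genes of the set and of the lists are not reported here by name. Fold bounds and count ratios used library totals. Promoter windows and miRNAs came from RefSeq tables (GRCh38.p14), and 20 of 39 HOX genes had a window. Figures were drawn with matplotlib 3.10.9.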

Additional observations from a re-analysis of the deposited data

How the results depend on the processing

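The direction of the 8 HOX genes in the comparisons of passaged with static cells held under the alternatives run, except for HOXB3 in P-IWP2 on Day 12, whose -0.07 ranged from -0.32 to 0.13 with 1 library left out (adjusted p = 0.655 without P-IWP2 replicate 6 of Day 12), and HOXB4 in the same comparison, which was 0.00 and ranged from -1.01 to 0.59 when a library was left out. The number of HOX genes called moved more. In P-DF on Day 12 it was 4, with 2 under library totals, 7 without the filter (HOXA13 among them) and 7 with only the groups compared. In P-IWP2 on Day 12 it was 2, with 5 without the filter and 0 with only the groups compared. With 1 library left out in turn, it ranged from 0 to 7 (P-DF, Day 12), 1 to 7 (P-DF, Day 16), 0 to 6 (P-IWP2, Day 12), 1 to 7 (P-IWP2, Day 16), 0 to 1 (P-DF over time), 0 to 4 (P-IWP2 over time) and 0 to 4 (interaction of P-IWP2 and day). In such a fit the lone library of a group is assumed to vary like the other groups. For P-IWP2 over time it was 2, with 5 without the filter and 0 with only the groups compared. For P-DF over time it was 0, with 1 with only the groups compared, and for the interaction of P-IWP2 and day 0, with 1 without the filter. The cause was not tested. Counting paralog group 4 as anterior moved the anterior median in P-DF on Day 16 from -0.42 to -0.63.

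The replicate block, possible only for the comparisons over time and the interactions, changed no count of calls: 2 HOX genes were called for P-IWP2 over time and 0 in the others. Whether the numbers pair the libraries of the 2 days is not stated. Libraries of the same number deviated from their group means with a correlation of 0.075 (NP-IWP2), -0.0015 (P-DF) and -0.031 (P-IWP2). With 2 libraries per group, these values show no pairing but cannot exclude it. For the comparisons of treatments on 1 day, no paired analysis was possible because the treatments share no replicate number. Depth limits the 18 HOX genes with no library over 3 counts, for which differences were not detectable.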
